A study of Mus musculus with 7 samples.

Results

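The cortex of FAD mice labelled CD38 was compared with the cortex of wild-type (WT) mice given PBS. FAD stands for mice carrying familial Alzheimer's disease transgenes. Wells of the count table were taken by name: cortex wells of FAD mice ending in CD38, read here as the injected agent against CD38, and cortex wells of WT mice ending in PBS. A well was used only where its name and the deposited sample sheet gave the same treatment. This left 7 FAD CD38 mice and 9 WT mice, 16 of the 24 cortex wells and of the 47 wells in all. A further 7 cortex wells came from FAD mice given a control IgG and are set beside the comparison. The cortex well of 1 mouse in pool 8 was named IgG in the table and CD38 in the sheet, and it was left out.

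The study measured gene expression in cortex and hippocampus of 24 mice in 7 library pools, to ask what targeting CD38 changes in this model. The assay, mcSCRB-seq, reads only the 3′ end of each transcript and gives every well its own barcode before the wells of a pool are mixed. Each mouse is a replicate. Every FAD CD38 mouse sat in a pool with at least 1 WT mouse, and pools 7 and 8 held 2 WT mice each. Genotype and injection differ together here, since the FAD mice had an antibody and the WT mice PBS, and their parts cannot be told apart in this comparison. The labels used here give no FAD line, promoter of the transgenes, strain, age, dose or time of injection.

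Amyloid plaques in such mice gather microglia, the resident macrophages of the brain, which take up lipid and debris through Trem2 and its signalling partner Tyrobp. Plaque-associated microglia switch on a set of lysosomal, lipid and chemokine genes often called the disease-associated set, and astrocytes nearby raise intermediate filaments such as Gfap. The CD38 protein sits on the cell surface and breaks down NAD, a cofactor of energy metabolism.

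Cortex wells of the FAD CD38 group held 2109934 to 4637276 counts and those of the WT group 2078974 to 4949220. Total counts, genes detected and the ribosomal RNA share of counts passed no test between the groups (two-sided exact permutation, lowest p = 0.398, adjusted p = 0.796). The ribosomal RNA share was 7.28% ± 2.77 (SD) over the 7 FAD CD38 mice and 6.91% ± 1.61 over the 9 WT mice, and it was above 9% in the FAD CD38 wells of pools 5, 7 and 11 and in 1 WT well of pool 8. In the FAD IgG wells of pools 9 and 10 it was 16.0% and 15.1%. The share of mitochondrially encoded RNA other than ribosomal RNA was lower in FAD CD38, at 6.01% ± 0.66 (n = 7) against 7.25% ± 0.88 (n = 9), by a two-sided exact permutation test (p = 0.0103, adjusted p = 0.0413 over 4 measures). The FAD CD38 mouse was below the WT mean of its pool in 6 of 7 pools.

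FAD CD38 cortex had higher levels than WT cortex of many microglial genes, such as Cst7, Trem2 and Tyrobp, and of the astrocyte gene Gfap. By edgeR's quasi-likelihood test with Benjamini-Hochberg adjustment, 428 of 12968 genes rose (3.3%) and 159 fell (1.23%) at an adjusted p of 0.05. The rises were the larger changes, with a median log2 fold change of 1.10 over the genes that rose and -0.51 over those that fell. Of the genes that rose 242 did so by at least 1 on the log2 scale, and of those that fell 6 did. Every FAD CD38 mouse lay above every WT mouse in CPM (counts scaled to the library total) for 208 genes (1.6%) and below every WT mouse for 9 (0.0694%). Over all genes the median log2 fold change was 0.015. In bulk tissue, more cells of a type and more RNA per cell cannot be told apart.

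Cst7, which encodes a cystatin of plaque-associated microglia, was at 95.3 to 258 CPM in FAD CD38 mice (median 166) and at 0.606 to 3.35 in WT mice (median 1.71). The groups stood far apart (log2 fold change 6.70 ± 0.24, the error being the SE), and the difference within the 7 pools ran from 5.40 to 7.64. With 3 to 10 counts in each WT well, Cst7 passed the filter on low counts by its FAD level and had to differ. No p-value is given for it. Ccl6, a chemokine, was at 43.9 to 105 CPM (median 77.7) against 2.56 to 7.12 (median 5.26), with a log2 fold change of 3.79 ± 0.15 (adjusted p = 1.06e-14). Trem2, the lipid-sensing receptor, was at 143 to 274 CPM (median 189) against 14.7 to 39.3 (median 27.7), a log2 fold change of 2.88 ± 0.18 (adjusted p = 1.05e-10). For these 3 genes no FAD CD38 mouse came near the WT range. Only levels are given for Clec7a and Itgax, which had 4 and 3 counts in the 9 WT mice together. Clec7a, a C-type lectin, was at 4.27 to 24.6 CPM in FAD CD38 mice (median 16.8) against a WT maximum of 0.962, and Itgax, the CD11c integrin, at 4.27 to 17.6 (median 7.86) against a WT maximum of 0.419. Ccl3, an inflammatory chemokine, had 8 WT counts in all and stood at 9.48 to 14.2 CPM in FAD CD38 mice.

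**Figure D1:**
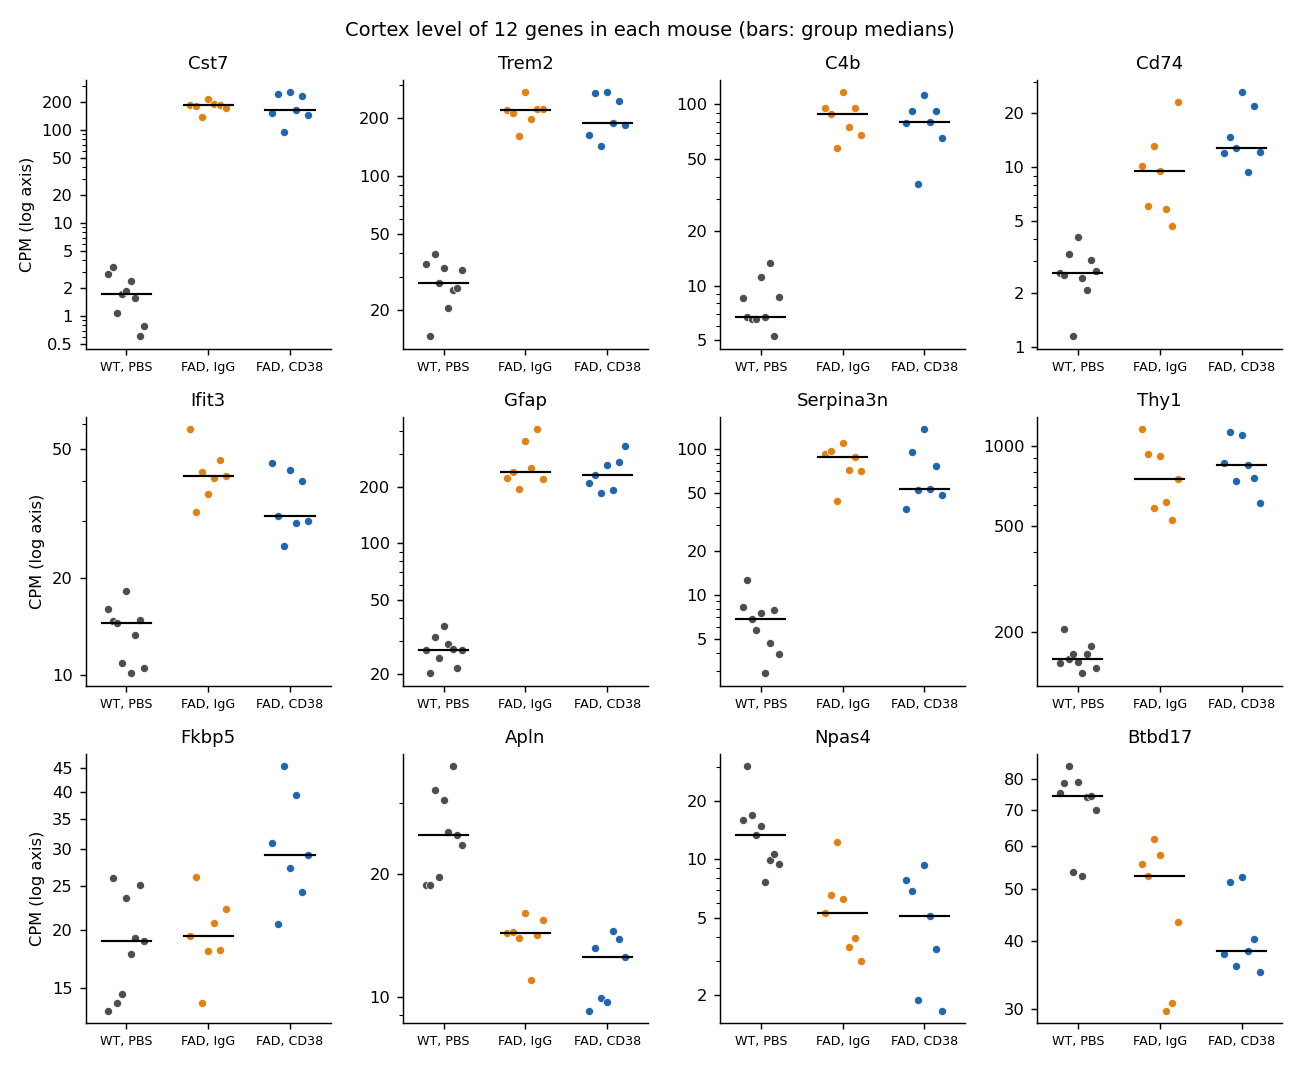
CPM on a log axis of 12 genes in cortex, each point 1 mouse (9 WT given PBS, 7 FAD given IgG, 7 FAD CD38) and each bar the group median. Cst7, Trem2, C4b, Cd74, Ifit3, Gfap, Serpina3n and Thy1 of all 7 FAD CD38 mice lie above the WT mice, Apln and Btbd17 lie below them, and Fkbp5 and Npas4 overlap.

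Of the 34 genes listed for disease-associated microglia 30 were tested and 26 rose, with a median log2 fold change of 2.48, against 3.3% of all genes and a median of 0.015. In 23 of the 30 every FAD CD38 mouse stood apart from every WT mouse, against 1.6% of all genes above WT and 0.0694% below. Beside the genes above, the lysozyme gene Lyz2 rose by 2.76 ± 0.15 (adjusted p = 5.1e-12) and Cd52, a small surface glycoprotein of leukocytes, by 2.60 ± 0.15 (adjusted p = 5.91e-12). Lgals3, the galectin-3 gene, was at 10.4 to 21.5 CPM against 0.285 to 1.82 in WT, a log2 fold change of 3.70. Gpnmb, a glycoprotein of phagocytes, ranged from 11.8 to 76.5 CPM among FAD CD38 mice, against 0.857 to 3.70 in WT (log2 fold change 3.96). Lilrb4a, Gpr84, Ch25h and Ms4a7 were not tested. The count table held 33 of the 34 listed genes, so not each of these was left out for low counts. Members that passed the filter only by their FAD level had to differ. The same holds for the lists below, whose counts of tested genes that rose and whose medians can be raised by it.

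Genes of Trem2 and ITAM signalling, the kinase pathway of activating receptors in myeloid cells, rose in 14 of the 15 tested (of 18), with a median of 1.97. Tyrobp, the adaptor that carries the Trem2 signal, was at 246 to 393 CPM (median 331) against 44.6 to 67 (median 60.6), a log2 fold change of 2.47 ± 0.15 (adjusted p = 1.08e-11). Laptm5, a lysosomal membrane protein of blood cells, rose by 2.0 and Plek, pleckstrin, by 2.06. Syk, Plcg2 and Btk, downstream enzymes of the pathway, were too low to test.

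Receptors for antibodies also rose. Of the 5 Fc gamma receptor genes tested (of 6), 4 rose, with a median of 1.87. Fcgr2b, the inhibitory receptor, was at 20.4 to 35.6 CPM (median 22.6) against 2.86 to 4.84 (median 3.37), a log2 fold change of 2.79 ± 0.16 (adjusted p = 5.91e-12). Fcer1g, the shared signalling chain, rose by 1.87, Fcgr3 by 1.74 and Fcgr1, the high-affinity receptor, by 1.97. These mice had received an antibody, and so had the FAD IgG mice, in which Fcgr2b stood at a log2 fold change of 2.72 against the same WT mice.

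Toll-like receptors and their partners, sensors of microbial and cellular debris, rose in 7 of the 8 tested (of 14), with a median of 2.12. Tlr2 was at 5.42 to 11.1 CPM against 0 to 1.44 in WT, a log2 fold change of 3.33, and its co-receptor Cd14 rose by 2.68 ± 0.22 (adjusted p = 1.07e-08). Ly86, a co-receptor of the family, rose by 2.24 and Unc93b1, which carries receptors of the family to endosomes, by 1.14. A fit of these groups alone, without FAD IgG, tested 5 and called 4. Tlr4 and Tlr9 were not tested. With a WT maximum of 1.44 CPM, Tlr2 passed the filter by its FAD level and had to differ.

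Homeostatic microglia genes, which mark resting microglia, rose too, by less. Of 18 tested 12 rose, with a median of 0.93. Csf1r, the receptor on which microglial survival depends, was at 48.8 to 92.0 CPM (median 84.4) against 20.2 to 42.1 (median 36.2), a log2 fold change of 1.02 ± 0.14 (adjusted p = 2.54e-05) with no overlap. Gpr34, a receptor for lysophosphatidylserine, rose by 1.24 and Siglech, a sialic acid receptor, by 0.99. The 6 members that passed no test were P2ry12, Tmem119, Sall1, Fcrls, Slc2a5 and Crybb1.

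Complement genes, which tag synapses and debris for uptake, rose in 8 of the 12 tested (of 19), with a median of 1.65. C4b was at 36.5 to 112 CPM (median 80.4) against 5.25 to 13.3 (median 6.73), a log2 fold change of 3.24 ± 0.22 (adjusted p = 3.99e-10). Of the C1q subunits, C1qc rose by 1.91 and C1qb by 1.74, and C3ar1, the receptor of the C3a fragment, rose by 2.36. The 8 genes that rose were also the 8 in which the groups did not overlap. Over all genes 1.6% did not overlap with FAD CD38 above and 0.0694% with FAD CD38 below.

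Among chemokines and their receptors 7 of the 12 tested (of 18) rose, with a median of 1.19. Ccl4, an inflammatory chemokine, was at 4.54 to 11.6 CPM against 0 to 0.818 in WT. It too passed the filter by its FAD level and had to differ. Cxcl16, a scavenger receptor and chemokine, rose by 2.03. Ccl5, which is also a product of T cells, rose by 1.79 ± 0.30, from 0.78 to 2.18 CPM in WT to 3.75 to 8.30. At that WT level Ccl5 likewise passed the filter by its FAD level and had to differ. In the list of inflammasome, IL-1, IL-17 and TNF genes 4 of the 11 tested (of 22) rose, with a median of 0.20. They were the inflammasome adaptor Pycard (1.44), the TNF receptor Tnfrsf1a (0.92), the IL-6 receptor Il6ra (1.12) and the IL-1 receptor Il1r1 (1.54), whose call was lost without pool 5.

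Antigen presentation rose in both classes. MHC class II genes, which show extracellular antigen to CD4+ T cells, rose in 7 of the 7 tested (of 10), with a median of 2.22. Cd74, the invariant chain, was at 9.37 to 26.3 CPM (median 12.8) against 1.14 to 4.10 (median 2.56), a log2 fold change of 2.54 ± 0.25. H2-Aa, a class II chain, was at 12.1 to 48.2 (median 20.5) against 2.89 to 7.64 (median 4.57). The FAD CD38 mice did not overlap with WT in either gene. In most WT mice Cd74 was under the level that the filter asks, so it passed by its FAD level and had to differ. H2-Ab1 rose by 2.32 and H2-Ob by 2.79. MHC class I genes rose in 8 of the 15 tested (of 17), with a median of 0.91 and 5 calls without pool 8. B2m, the light chain, rose by 1.48 ± 0.11 (adjusted p = 3.14e-10), from 199 to 275 CPM in WT to 486 to 884, and the immunoproteasome subunit Psmb8 rose by 1.5. H2-K1 (1.31) and H2-D1 (1.44) belong to a family of near-identical copies whose reads the counting may split, so these values are uncertain.

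Interferon response genes, switched on by a complex of transcription factors that includes Stat2 and Irf9, rose in 14 of the 24 tested (of 32), with a median of 1.06. Ifit3, an antiviral protein, was at 25.1 to 45.3 CPM (median 31.1) against 10.1 to 18.3 (median 14.5), a log2 fold change of 1.29 ± 0.13 (adjusted p = 1.25e-07). Lgals3bp, a galectin-binding secreted protein, rose by 2.34 ± 0.14 (adjusted p = 9.6e-12), Bst2, tetherin, by 1.62 and Ifitm3, a membrane protein that hinders virus entry, by 1.13. Stat2 and Irf7 passed no test.

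The interferon-stimulated response element is the DNA motif bound by that factor complex, and its core was searched as GAAANNGAAA on both strands, and overlap with other motifs was not examined. Of the 14 genes that rose 11 had a promoter in the RefSeq table of build GRCm38.p6. Of these 11, 6 (54.5%) held the core in the 250 bases before the start site. So did 3.46% of all 27025 genes in the table and 2.91% of the tested genes in it. The list was made of genes switched on by that complex, so a share above that of all genes came with the choice of list. Of the 9 matched members that passed no test 1 held it, Stat2. The 6 stretches are shown because these genes rose together, 5′ to 3′ on the gene's strand, with the core in capitals (its reverse complement where it lies on the other strand, a longer run where cores overlap).
Ifit1, chr19:34640769-34640828, + strand: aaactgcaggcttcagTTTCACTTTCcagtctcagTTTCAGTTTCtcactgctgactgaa
Ifit3, chr19:34583363-34583426, + strand: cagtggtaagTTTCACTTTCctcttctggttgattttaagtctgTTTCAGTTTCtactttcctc
Ifit3b, chr19:34607759-34607822, + strand: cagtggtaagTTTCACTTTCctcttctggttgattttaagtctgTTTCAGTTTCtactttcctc
Bst2, chr8:71537565-71537624, - strand: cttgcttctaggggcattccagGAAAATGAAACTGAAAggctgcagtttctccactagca
Rsad2, chr12:26456538-26456597, - strand: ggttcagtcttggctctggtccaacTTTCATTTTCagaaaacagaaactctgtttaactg
Trim30a, chr7:104465195-104465254, - strand: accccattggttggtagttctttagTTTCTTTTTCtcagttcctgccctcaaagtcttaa
A match to these letters is a description and not a measured binding site.

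Ifit1, Ifit3, Ifit3b and Bst2 held 2 cores each and Rsad2 and Trim30a 1. The stretches of Ifit3 and Ifit3b are the same letters, as these are near-identical copies, so the split of counts between them is uncertain. Ifit3b was at 9.48 to 26.3 CPM against 3.72 to 10.1 in WT (log2 fold change 1.44), and Ifit1 at 4.74 to 20.8 against 2.89 to 7.98 (1.05). In both genes 6 of 7 FAD CD38 mice were above every WT mouse. Bst2 was at 11.4 to 29.2 CPM against 2.40 to 8.94 and Trim30a, a ubiquitin ligase, at 4.5 to 8.32 against 1.09 to 3.43 (log2 fold change 1.39), with no overlap in either. Rsad2, viperin, was the least steady of the 6, at 1.44 to 6.47 CPM against 0.962 to 3.13 (1.06 ± 0.27), and its call was lost in 6 of 18 alternative settings. In most WT mice Rsad2 was under the level that the filter asks, so it passed by its FAD level. Ifit1, Ifit3b, Rsad2 and Trim30a were chosen for description after their values were seen.

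Lysosomal genes rose in 21 of 35 tested, with a median of 0.77. Cd68, a lysosomal glycoprotein of macrophages, was at 65.4 to 200 CPM (median 104) against 12.7 to 17.7 (median 15.6), a log2 fold change of 2.86 ± 0.19 (adjusted p = 3.99e-10). The cysteine proteases Ctss and Ctsz rose by 1.89 and 1.59. The 14 members that passed no test included the lysosomal membrane protein Lamp1 and the hydrolases Gaa and Lipa. The palindromic E-box of lysosomal promoters (TCACGTGA, its own reverse complement) stood in 2 of the 17 matched genes that rose, Ctsa and Ctsd, and in 0.907% of all genes of the table and 1.82% of the tested genes in it. Ctsd, the aspartic protease cathepsin D, was at 4.91 to 12.9 CPM against 0.606 to 4.0, and this gene too was chosen after its values were seen. It was highest, at 24.6 and 27.5 CPM, in the FAD IgG wells of pools 9 and 10, of 16.0% and 15.1% ribosomal RNA. Among FAD CD38 wells of high share it was 12.9 CPM in pool 11, 10.4 in pool 7 and 6.47 in pool 5, against 4.91 to 8.77 in the rest. The part of RNA quality in its rise was not tested. The PU.1 site of myeloid genes (GAGGAAGT, both strands) was found in 1 of 21 matched genes that rose in the disease-associated list and in 0 of 8 in the homeostatic list, against 2.79% of all genes.

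Of the lipid handling genes 5 of the 17 tested (of 21) rose, against 3.3% of all genes, with a median of 0.44. They included Lpl, the lipoprotein lipase (1.29), Npc2, which moves cholesterol out of lysosomes (0.77 ± 0.12, adjusted p = 0.000128), the lipid droplet coat gene Plin2 (0.84, lost without pool 6, 7 or 8) and the receptor Lrp1 (0.47, lost without pool 5, 6 or 8). The count was 2 without pool 6 and 3 without pool 8. Cholesterol synthesis had 2 of 19 higher, against the same 3.3%, namely Stard4 (0.73) and Mvk (0.46, lost in 8 settings). The count was 1 on leaving out any 1 of pools 6 to 11, and 4 with a ribosomal RNA covariate or without FAD IgG.

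Reactive astrocyte genes rose in 14 of the 21 tested (of 29), with a median of 0.92. Gfap, the astrocyte intermediate filament, was at 186 to 332 CPM (median 231) against 20.1 to 36.1 (median 26.8), a log2 fold change of 3.15 ± 0.17 (adjusted p = 8.58e-12). Serpina3n, a protease inhibitor made by astrocytes and oligodendrocytes, was at 38.4 to 136 CPM (median 52.6) against 2.89 to 12.6 (median 6.82), a log2 fold change of 3.36 ± 0.25 (adjusted p = 6.21e-09). Neither gene overlapped with WT, and within the pools Serpina3n differed by 2.06 to 4.55. Vim, vimentin, rose by 1.98.

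Homeostatic astrocyte genes did not rise as a list. Of 21 tested 1 rose and 4 fell, against 3.3% and 1.23% of all genes, with a median of -0.034. The gene that rose was Aqp4, the water channel of astrocyte endfeet, at 67.8 to 117 CPM against 24.7 to 51.0 (log2 fold change 1.03 ± 0.20, adjusted p = 0.00181). Acsbg1, an acyl-CoA synthetase, was at 64.5 to 110 CPM (median 91.4) against 102 to 144 (median 126) and fell by 0.58 ± 0.11 on the log2 scale (adjusted p = 0.00186). In 6 of 7 FAD CD38 mice Acsbg1 was below every WT mouse. Cldn10, a claudin (-0.49), Gpc5, a glypican (-0.65), and Mfge8, a bridging protein for uptake of dying cells (-0.54), also fell. Each of these 3 calls was lost without pool 5, 7 or 9 and without the wells of high ribosomal RNA share, which left 1 of the 4 called.

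Oligodendrocyte and myelin genes had 1 of 20 higher and 0 lower, against 3.3% and 1.23% of all genes, with a median of -0.031. That gene was Cldn11, the claudin of myelin, at 39.3 to 64.1 CPM against 20.7 to 36.2 (log2 fold change 0.75 ± 0.13, adjusted p = 0.000545). Of the genes that oligodendrocytes switch on in disease models 9 of 12 rose, with a median of 0.78, but it shares Serpina3n, C4b, B2m, H2-D1 and Cd63 with the lists of astrocytes, complement, MHC class I and microglia. Klk6, a secreted protease that is mainly oligodendrocytic, was at 14.2 to 29.5 CPM (median 18.3) against 3.38 to 8.69 (median 6.28), a log2 fold change of 1.65 ± 0.16 (adjusted p = 6.92e-08). Oligodendrocyte precursor genes had 1 higher and 1 lower of 12, Bmp4 (0.91) and Cspg5 (-0.37), both calls lost in 9 or more of 18 settings. Endothelial and mural genes had 0 higher and 1 lower of 21, the organic anion transporter Slco1a4 (-0.74 ± 0.19, adjusted p = 0.021, lost without pool 6, 7 or 8).

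**Figure D2:**
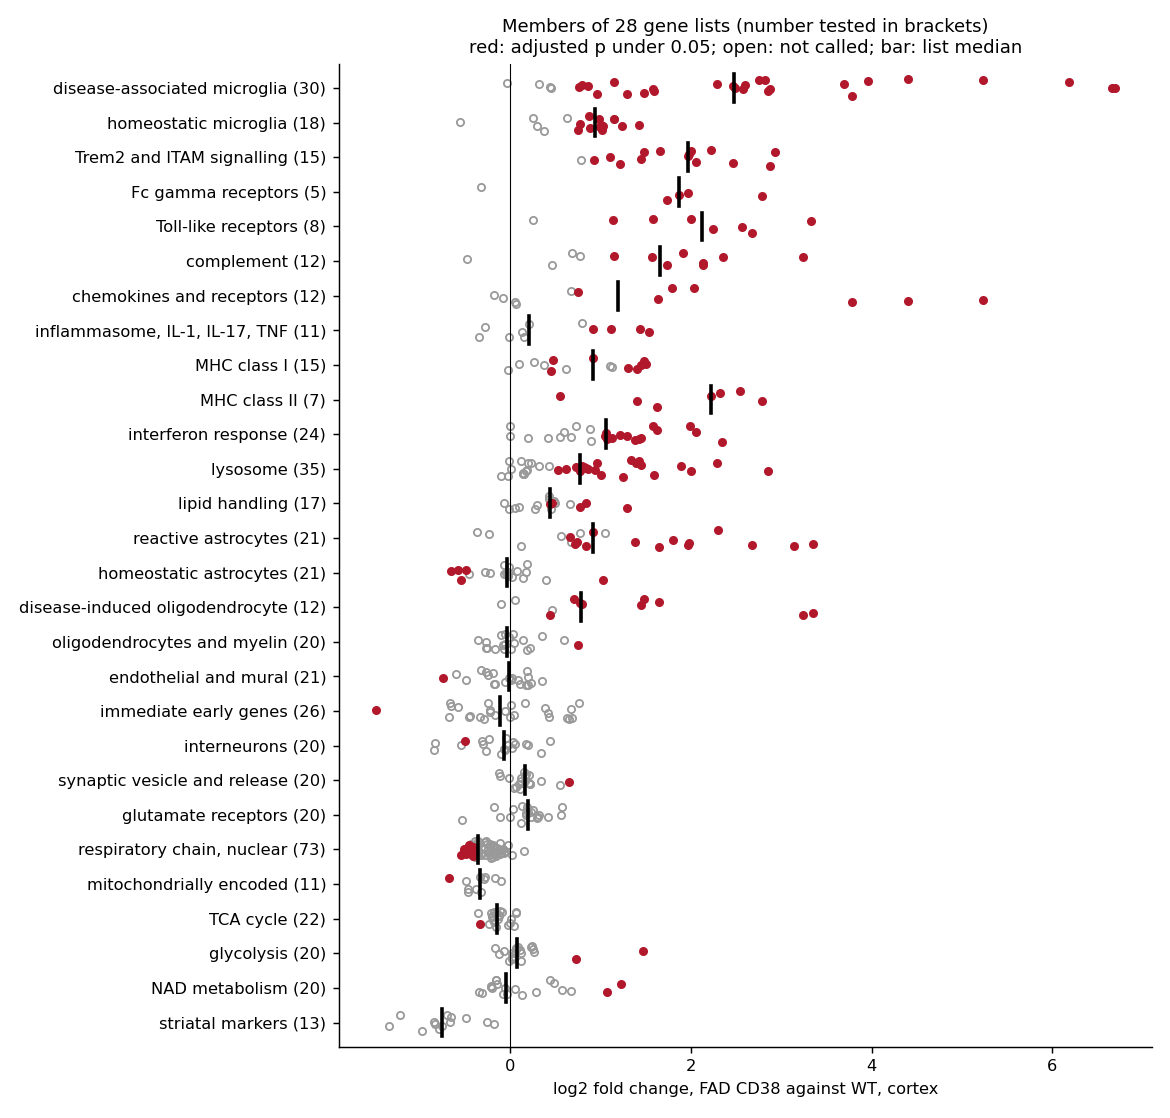
Log2 fold change of FAD CD38 against WT for every tested member of 28 gene lists, red where the adjusted p was under 0.05 and open where it was not, with a bar at the list median. Microglial and immune lists lie to the right, with medians up to 2.48, while respiratory chain and striatal lists lie to the left, with medians of -0.35 and -0.75. The fitted values of Clec7a and Itgax rest on 4 and 3 WT counts.

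Each of these lists could be followed within the pools. The disease-associated list differed by a median of 1.81 to 2.74 in all 7 pools, MHC class II by 1.15 to 2.71, the interferon list by 0.55 to 1.31, reactive astrocytes by 0.72 to 1.42 and the lysosome by 0.31 to 1.01. Homeostatic microglia genes differed by 0.34 to 1.27. Homeostatic astrocyte genes were above 0 in 3 of 7 pools and myelin genes in 4.

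**Figure D3:**
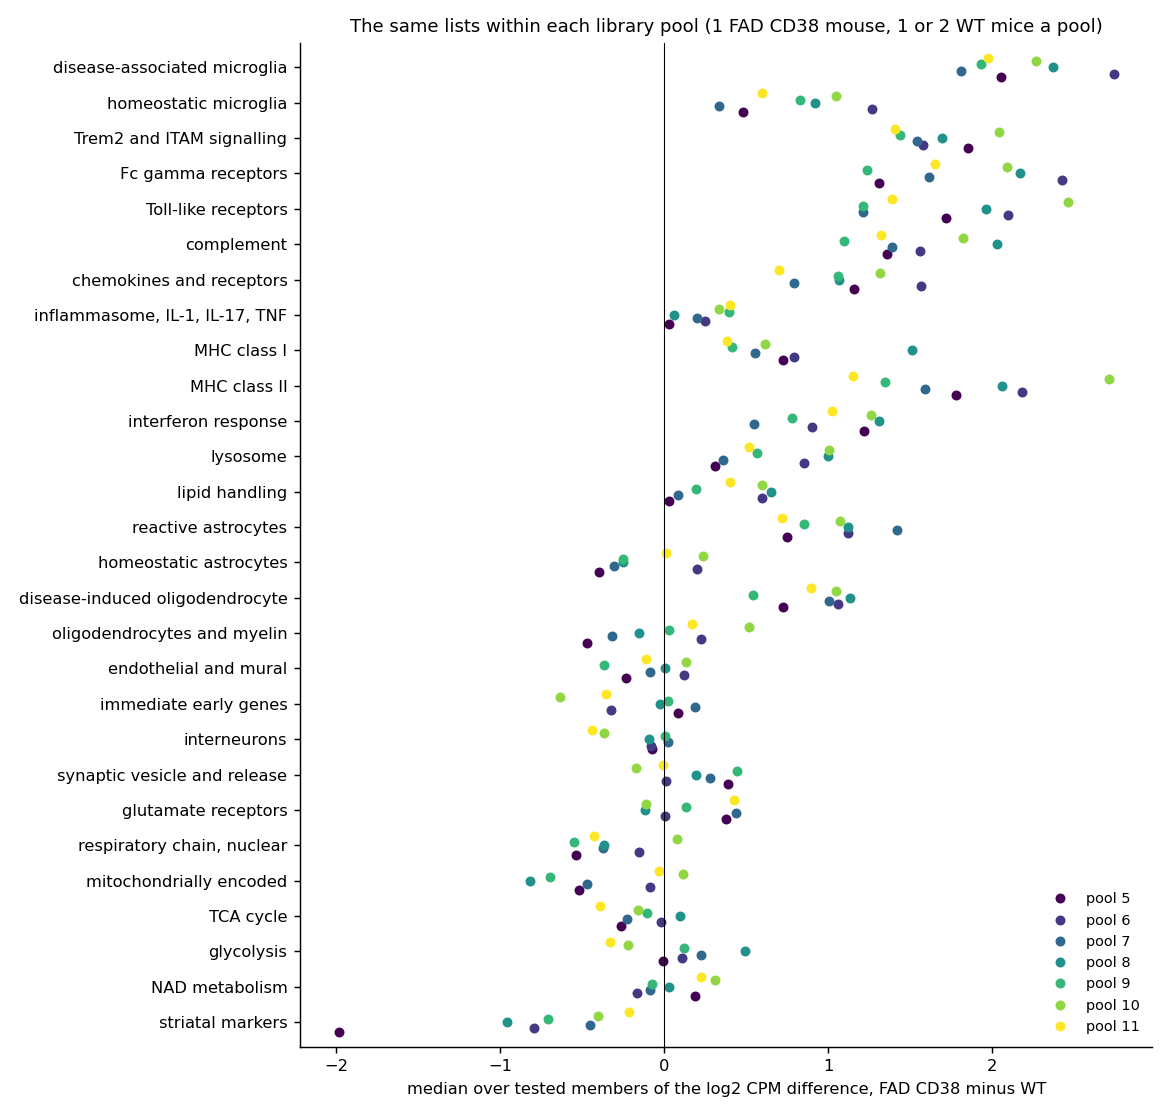
Median over the tested members of each list of the log2 CPM difference between the FAD CD38 mouse and the WT mice of its own pool, 1 point for each of 7 pools. The upper lists lie above 0 in every pool, the nuclear respiratory chain in 1 pool and striatal markers in none.

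Thy1, which encodes a surface glycoprotein of neurons, was at 612 to 1127 CPM (median 846) in FAD CD38 mice and at 139 to 204 (median 158) in WT mice. Its log2 fold change was 2.36 ± 0.13 (adjusted p = 4.73e-12), and no mouse overlapped. App, the amyloid precursor, was at 464 to 761 CPM (median 608) against 353 to 554 (median 419), with 6 of 7 FAD CD38 mice above every WT mouse (log2 fold change 0.49 ± 0.12, adjusted p = 0.0177). Its call was lost without pool 5 or 8 and without the wells of high ribosomal RNA share. Of the 16 genes of the secretase, App and tau list 2 rose, App among them (median 0.12), against 3.3% of all genes. How far reads of a transgene enter the counts of Thy1 and App was not tested.

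Cd38, the gene of the enzyme under study, was low in both groups, at 1.51 to 5.75 CPM (median 3.75) in FAD CD38 and 0.962 to 3.99 (median 1.91) in WT, with 73 and 74 counts in all. The groups overlapped, and the log2 fold change of 0.48 ± 0.32 passed no test (adjusted p = 0.451). An antibody acts on the protein, so this gene does not check the labels. Of the 20 NAD metabolism genes tested (of 30) 2 rose, Naprt, which makes NAD from nicotinic acid (1.07 ± 0.20, adjusted p = 0.000904), and the ADP-ribosyltransferase gene Parp3 (1.23 ± 0.26, adjusted p = 0.00328), and 0 fell (median -0.046). Over all genes 3.3% rose and 1.23% fell. Nampt, the rate-limiting enzyme of NAD salvage, Sarm1 and Sirt1 passed no test. Without the wells of high ribosomal RNA share 1 of 23 rose.

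Fewer genes fell, and by less. Apln, which encodes the peptide ligand of the apelin receptor, was at 9.24 to 14.5 CPM (median 12.5) in FAD CD38 mice and at 18.8 to 36.9 (median 25.1) in WT mice. It fell by 1.13 ± 0.16 on the log2 scale (adjusted p = 4.02e-05), was lower in 7 of 7 pools and did not overlap. Npas4, a transcription factor induced by neuronal activity, was at 1.67 to 9.34 CPM (median 5.14) against 7.70 to 30.2 (median 13.4), a fall of 1.49 ± 0.23 (adjusted p = 0.000121), with 5 of 7 FAD CD38 mice below every WT mouse. Btbd17, a secreted BTB domain protein, was at 35.0 to 52.6 CPM (median 38.4) against 52.9 to 84.3 (median 74.4), a fall of 0.81 ± 0.14 (adjusted p = 0.000273) with no overlap. Serpini1, neuroserpin of neurons, was at 86.8 to 125 CPM (median 107) against a WT median of 147, a fall of 0.51 ± 0.09 (adjusted p = 0.000375). All 4 kept their calls in 18 of 18 alternative settings.

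Further down the order of p stood Kcnab1, a potassium channel subunit (-0.75), Glrb, the beta subunit of glycine receptors (-0.49), Neurl1a, a neuronal ubiquitin ligase (-0.58), Nsmf, a synapse-to-nucleus messenger (-0.53), and Slc27a1, a fatty acid transporter (-0.51). The first 3 of these and Acsbg1 also kept their calls in every setting, whereas Nsmf and Slc27a1 lost them without the wells of high ribosomal RNA share. Polr2k, an RNA polymerase subunit (-0.59), and Traip, a ubiquitin ligase of DNA repair (-0.74), lost theirs in the same setting. Of the 28 named genes that fell 8 kept the call in all 18 settings, and of the 90 that rose 70 did.

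The number of genes that fell hung on which mice were in the fit. Leaving out pool 5 gave 44, pool 6 gave 51, pool 8 gave 32, pool 9 gave 63 and pool 11 gave 48, but leaving out pool 10 gave 293. Without the 6 wells above 9% ribosomal RNA, which left 4 FAD CD38, 8 WT and 5 FAD IgG mice, 33 fell and 336 rose. Of the 159 genes 18 were still called there, and of the 428 that rose 306 were. DESeq2 called 314 lower and 457 higher, so that the share of higher calls was 59.3% in place of 72.9%.

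**Figure D4:**
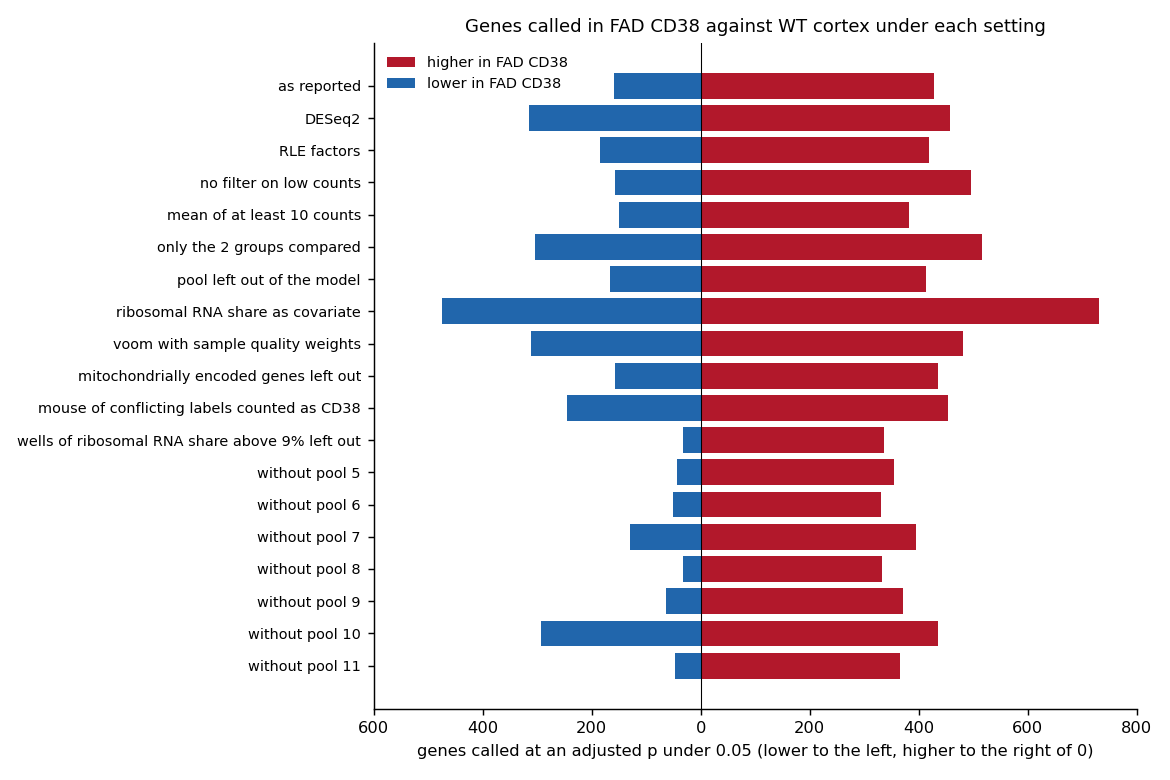
Genes called higher (red, right) and lower (blue, left) in FAD CD38 against WT cortex as reported and in 18 alternative settings. Calls higher stay between 331 and 731, while calls lower run from 32 without pool 8 to 475 with the ribosomal RNA share as a covariate.

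Immediate early genes, the first to be transcribed after neuronal firing, had 1 of 26 lower, Npas4, against 1.23% of all genes. In this list 0 were higher, and the median was -0.11. The other 25, Fos, Arc and Egr1 among them, passed no test. The count was 2 without pool 7 or 8, 3 without pool 9, by DESeq2 or without the wells of high ribosomal RNA share, and 4 with a ribosomal RNA covariate or without FAD IgG. Their median within the pools ran from -0.64 to 0.19 and was above 0 in 3 of 7. The cyclic AMP response element (TGACGTCA, its own reverse complement) was not found before the start of Npas4.

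Neuronal lists moved little. Over all genes 3.3% rose and 1.23% fell. Interneuron genes had 1 of 20 lower, the neuropeptide gene Cort (-0.50 ± 0.14, adjusted p = 0.0443, lost in 8 of 18 settings), and GABA and glycine receptors 2 of 15, Glrb and Gabra5 (-0.41, lost in 8 settings). Glutamate receptor and scaffold genes had 0 of 20 called in either direction, with a median of 0.20. Synaptic vesicle genes had 1 of 20 higher, the active zone gene Rims1 (0.65, lost in 8 settings), with a median of 0.16. Cortical layer markers had 0 of 17 called and a median of -0.056, and heat shock and unfolded protein genes 0 of 18 and 0.16.

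Glucocorticoid-induced genes rose in 3 of 14, against 3.3% of all genes, with a median of 0.25. Fkbp5, a chaperone of the glucocorticoid receptor, was at 20.7 to 45.5 CPM (median 29.2) against 13.4 to 26.0 (median 18.9), with 5 of 7 FAD CD38 mice above every WT mouse (log2 fold change 0.66 ± 0.17, adjusted p = 0.0276). The metallothionein gene Mt2 rose by 0.68 and Plin4, a lipid droplet coat, by 1.27. The count was 0 without pool 7, 1 without pool 11 and 0 without the wells of high ribosomal RNA share. Antioxidant and metal-binding genes rose in 3 of 22, Mt2 again, the stress regulator Nfe2l2 (0.74) and the peroxiredoxin Prdx6 (0.50), with 5 without pool 9 and 1 without pool 11.

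Of the 73 nuclear genes of the respiratory chain tested (of 76) 14 fell, against 1.23% of all genes, and 0 rose. The median was -0.35, and 71 were below 0, against 47.5% of all genes. Complex I, which oxidises NADH, held 11 of the 14 among its 36 genes (median -0.37), complex IV 1 of 9 and ATP synthase 2 of 14, while complexes II and III had 0 of 4 and 0 of 8. Ndufc2, a complex I subunit, was at 280 to 371 CPM (median 316) against 365 to 483 (median 400), a fall of 0.41 ± 0.09 (adjusted p = 0.0068), with 5 of 7 FAD CD38 mice below every WT mouse. Ndufc1 (-0.49), Ndufb6 (-0.41) and Ndufv2 (-0.46) fell as well. These falls were small and their calls unsteady. There were 2 without pool 5, 9 or 11, 5 without pool 6, 0 without pool 8 and 0 without the wells of high ribosomal RNA share. But there were 34 without pool 10, 32 by voom with sample quality weights, 33 by DESeq2 and 39 with a ribosomal RNA covariate. The median stayed between -0.40 and -0.27 in every setting and was below 0 in 6 of 7 pools.

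Mitochondrially encoded genes, whose transcripts are made inside the organelle, were below 0 in 11 of the 11 tested (of 13), with a median of -0.33, and 1 fell. That was mt-Atp6, a subunit of ATP synthase, at 56.6 to 152 CPM (median 103) against 58.6 to 272 (median 161), with 6 of 7 FAD CD38 mice inside the WT range (-0.67 ± 0.18, adjusted p = 0.0346, lost in 6 settings). The lower mitochondrial share of counts in FAD CD38 given above is a sum over such genes. Tricarboxylic acid cycle genes had 1 of 22 lower, against 1.23% of all genes, with a median of -0.15. The count was 0 without pool 5, 6, 7, 8, 9 or 11 or without the wells of high ribosomal RNA share.

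Glycolysis had 2 of 20 higher, against 3.3% of all genes, and a median of 0.079. Hk2, a hexokinase that is low in resting brain, was at 8.77 to 15 CPM (median 10.4) against 2.56 to 6.70 (median 3.82), a log2 fold change of 1.48 ± 0.19 (adjusted p = 7.17e-06) with no overlap. Pfkfb3, which drives glycolytic flux by raising fructose 2,6-bisphosphate, was at 8.96 to 22.8 CPM (median 13.8) against 3.85 to 9.97 (median 8.29), a log2 fold change of 0.73 ± 0.18 (adjusted p = 0.0157), a call lost without pool 7 or 8 and without the wells of high ribosomal RNA share. The remaining 18 glycolytic genes passed no test.

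Markers of tissue next to cortex differed as well. Of the 13 striatal markers tested (of 14), genes of the medium spiny neurons beneath the cortex such as Ppp1r1b, Drd1 and Adora2a, 13 were below 0, with a median of -0.75 and 0 called singly (8 of 12 in a fit of these groups alone). Their summed level was 259 to 688 CPM in FAD CD38 mice and 499 to 990 in WT mice, and none of the markers was at 0. The within-pool median was below 0 in 7 of 7 pools, from -1.98 in pool 5 to -0.21 in pool 11. Its part in the genes that fell was not tested. Hippocampal markers had 1 of 8 lower, Cabp7 (-0.75, lost in 8 settings), with summed levels of 92.6 to 132 against 103 to 130 CPM. Choroid plexus markers summed to 144 to 1778 CPM in FAD CD38 and 131 to 262 in WT, with 0 of 3 called.

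Markers of blood cells gave few calls, and most of them were not tested, being too low or absent from the count table. Border macrophage genes summed to 12 to 19.0 CPM against 11.2 to 16.9 in WT, monocyte and neutrophil genes to 5.21 to 11.6 against 7.54 to 12.9, and 0 of the 2 and 1 tested were called. T and NK cell genes summed to 46.7 to 78.1 against 58.7 to 72.1 CPM. Ccl5 was the 1 of 3 called, and it passed the filter by its FAD level. With no filter on low counts 10 T and NK cell genes were fitted, 2 were called higher and the median was 1.80. Without FAD IgG or without pool 7, 1 of 3 was higher and 1 lower. A rise of rare T or NK cells is thus neither shown nor excluded. B cell genes summed to 64.5 to 122 against 72.6 to 110 CPM. Red blood cell genes ranged widely in both groups, from 138 to 1207 CPM in FAD CD38 and 111 to 1061 in WT.

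Beside the same WT mice, the FAD IgG mice gave values close in size. These comparisons share the WT mice, so the test between FAD groups is the one made directly. It called 0 of 12968 genes (0.0%) by edgeR, with 195 at an unadjusted p under 0.05. DESeq2 called 0 with 152 and voom with sample quality weights 0 with 187. Each of these counts is a smaller share of the 12968 genes than the 0.05 that chance alone would give. They are thus no sign of a difference between the FAD groups. With so few low p-values the tests were strict here, and the 0 calls do not show likeness either. Of the 587 genes called against WT, 565 had a 95% interval for FAD CD38 minus FAD IgG that lay within a 2-fold difference either way. That margin is wider than many of the changes against WT. Only 242 of the 428 genes that rose and 6 of the 159 that fell changed by 2-fold or more. For the smaller changes, such an interval could hold even their full loss, so the count does not show likeness. For Cst7 the difference was -0.093 (95% interval -0.47 to 0.29), for Trem2 -0.084 (-0.45 to 0.29), for Gfap -0.24 (-0.59 to 0.11), for Apln -0.29 (-0.66 to 0.083) and for Npas4 0.0062 (-0.58 to 0.59).

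The list medians stood side by side. Against WT, the disease-associated list had a median of 2.53 in FAD IgG and 2.48 in FAD CD38, the interferon list 1.26 and 1.06, reactive astrocytes 0.95 and 0.92, MHC class II 1.76 and 2.22 and the nuclear respiratory chain -0.30 and -0.35. Cd74 was 0.47 higher in FAD CD38 than in FAD IgG (95% interval -0.026 to 0.96), Hk2 0.39 (-0.00495 to 0.786) and Pfkfb3 0.41 (0.016 to 0.81). Klk6 was lower by -0.47 (-0.78 to -0.15) and Ifit3 by -0.35 (-0.62 to -0.076). Fkbp5 stood at 0.051 in FAD IgG against WT and at 0.66 in FAD CD38, and its direct difference was 0.60 (0.213 to 0.995). None of these passed the adjusted test, the lowest adjusted p over all genes being 0.99993. The 5 genes of smallest p were Ccnt1 (0.54), S1pr5 (-0.55), Art3 (-0.83), Adat2 (-0.86) and Cela1 (-0.64).

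**Figure D5:**
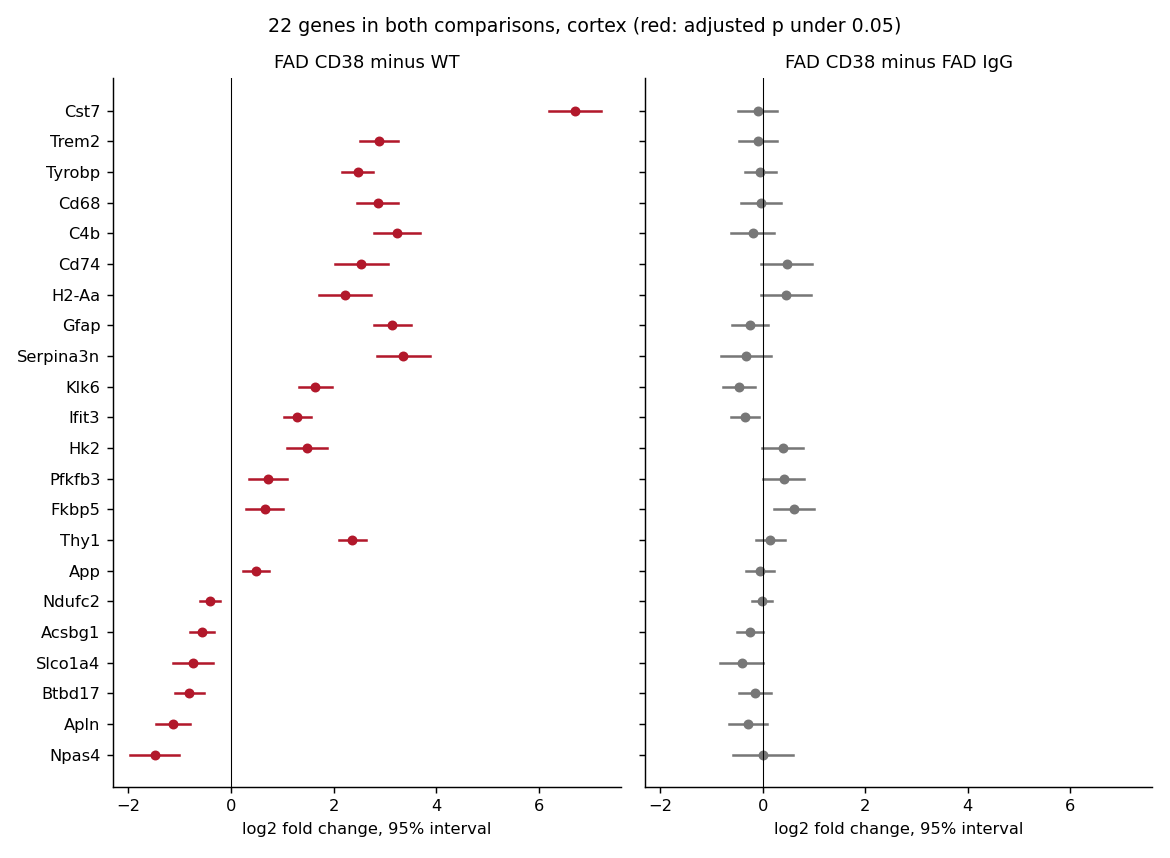
Log2 fold change with its 95% interval for 22 genes in cortex, on the left FAD CD38 minus WT and on the right FAD CD38 minus FAD IgG, red where the adjusted p was under 0.05. All 22 are red on the left, from Cst7 at 6.70 to Npas4 at -1.49, and none on the right, where the estimates lie between -0.47 and 0.60.

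Hippocampus wells were at hand for all 7 FAD CD38 mice and for 8 of the 9 WT mice. Their RNA quality was less even than in cortex, with ribosomal RNA at 30.5% in 1 WT well of pool 8 and at 24.0% in the FAD CD38 well of pool 7, where the mitochondrial share was 1.27%. In a limma voom fit of both regions with the mouse as a correlated block, 15 of 13447 genes (0.112%) had an effect of FAD CD38 against WT that differed between regions, with hippocampus minus cortex above 0 for 12 and below 0 for 3. With sample quality weights the counts were 81 and 68, and the part of RNA quality in these differences was not tested. Cd74 stood at 2.49 in cortex and 4.62 in hippocampus in this fit (difference 2.12 ± 0.41, adjusted p = 0.0095) and Klk6 at 1.67 and 2.95 (1.28 ± 0.22, adjusted p = 0.0013). Serpina3n went the other way, at 3.35 against 2.24 (difference -1.11 ± 0.24, adjusted p = 0.0349). The disease-associated list had a median of 2.41 in cortex and 2.85 in hippocampus with 1 of 30 members differing, and the nuclear respiratory chain -0.35 and -0.093 with 0 of 73. Apln stood at -1.11 in cortex and -0.79 in hippocampus in this fit, a difference that passed no test (adjusted p = 0.644). Of the 3 genes listed for apelin and its receptor, only Apln was in the count table, so the receptor gene Aplnr could not be tested.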

How the data were processed

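Cortex and hippocampus RNA of 24 mice was sequenced by mcSCRB-seq. Whole-number counts per gene and well were deposited by the authors; bcl2fastq 2.17 and STAR 2.5.3a are named in the submitters' processing notes, while build, annotation, counting tool and handling of molecular barcodes were, in the sources used here, not given. Genes were filtered with filterByExpr (at least 10 counts, 15 in total) and fitted with edgeR 4.0.16 (TMM, robust quasi-likelihood, group plus pool, 3 cortex groups), with Benjamini-Hochberg adjustment over 12968 genes. Regions were compared with limma 3.58.1 voom and a mouse block; DESeq2 1.42.0 was an alternative. The code was tested on simulated data. Named genes were the 15 of smallest p per direction, the 10 largest changes above 5 CPM, and up to 4 called members per list and direction. The groups, genes and 44 lists were chosen with earlier results of these data known; further detail genes and the 9% ribosomal RNA limit were chosen after seeing values. Promoters are RefSeq's (GRCm38.p6), matched by symbol for 9576 tested genes. The precision of low genes is limited by counting error at these depths. Some genes are not reported here.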

Additional observations from a re-analysis of the deposited data

Results flagged for a closer look

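In 76 groups of values tested, 5 mice stood apart from the rest of their group, and chance alone gives about 1 in 20. Klk6 was at 29.469 CPM in the FAD CD38 mouse of pool 10 (group median 18.339). Trim30a was at 8.319 CPM in the FAD CD38 mouse of pool 5 (median 5.443), and Pfkfb3 at 22.75 in that of pool 7 (median 13.841). The WT mouse of pool 6 was high for both Npas4, at 30.162 CPM (median 13.433), and Hk2, at 6.7027 (median 3.8194).

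The effect of FAD CD38 against WT differed between regions for 15 genes by limma voom with the mouse as a block. As hippocampus minus cortex on the log2 scale, the difference was 2.1236 for Cd74, 2.1382 for Gm4951, 1.9585 for Endou, 1.4704 for Abhd11os and 1.409 for Lsp1. It was 1.2842 for Klk6, 1.2617 for S100a6, 1.2353 for Nckap1l, 1.2298 for Cd52 and 1.0947 for Srgn. It was 0.99624 for H2-T23 and 0.88276 for Lgals1, and below 0 for Serpina3n (-1.1076), Mal2 (-0.47774) and Pla2g4e (-1.8541).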

How the results depend on the processing

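Mice were compared within library pools, since pool was a term of the fit; without it 414 genes were higher and 166 lower. Over 18 alternatives no named gene reversed where it was called as reported or in the alternative. Changes of sign without a call in either were not counted. Against 428 higher and 159 lower genes, adding a covariate for ribosomal RNA share gave 731 and 475. Lower calls were 314 by DESeq2, 311 by voom with quality weights, 303 with only the groups compared, 245 with the conflicting mouse of pool 8 taken as CD38 and 33 without the wells above 9% ribosomal RNA, an alternative chosen after seeing the data. Leaving out each pool gave 331 to 435 higher and 32 to 293 lower. The cause was not tested. For the region difference, reported as 12 above 0 and 3 below, leaving pool out gave 7 and 1, quality weights 81 and 68, and a mean of at least 10 counts 12 and 1.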
